A study of Mus musculus with 6 samples.

Results

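The genes described here make cholesterol and fatty acids, sense sterols or carry cholesterol out of the cell. They were listed by name as 35 genes in 4 groups, namely sterol synthesis with 18 genes, uptake and sensing with 6, fatty acid synthesis with 9 and efflux with 2. A gene was analysed where the array's platform annotation gave it a probe set of its own, and where there were several, the brightest on average was taken. This held for 31 of the 35 genes, out of 30675 genes in all. Acat2, Tm7sf2, Srebf1 and Scd2 were not analysed here. All 31 passed the filter on dim probe sets, which kept 20164 genes, and the lowest mean of any of them in either age, 6.53 for Idi1 at 3 months, lay above the filter's limit of 5.403 on the log2 scale.

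RNA came from bone marrow stromal cells, the adherent marrow cells that can give rise to bone, fat and cartilage, of mice aged 18 months (3 arrays, called aged here) and 3 months (3 arrays, called young). Cells of both ages were freed from crushed femurs with collagenase, sorted as positive for Sca-1 and CD29 and negative for CD45 and CD11b, and expanded in culture before total RNA was taken. The labels name no genotype, treatment, strain or sex. They call the arrays of each age biological replicates, but whether each array had its own animal or pool of animals is not stated. The p-values therefore measure only the spread between these arrays. How expression in these cells differs with the age of the donor is the question of the comparison. In bulk RNA, a change in the number of cells that express a gene and a change of its RNA per cell cannot be told apart.

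Cholesterol is built from acetyl-CoA through mevalonate, squalene and lanosterol by enzymes of the endoplasmic reticulum and cytosol. Most of these enzymes are under the control of SREBP2, a membrane-bound transcription factor, which the escort protein SCAP carries to the Golgi for cleavage when sterols are scarce and which INSIG proteins hold back when sterols are plentiful. The related SREBP1 acts mainly on fatty acid synthesis. Sterol excess activates the liver X receptors (LXRs), which raise the efflux pumps ABCA1 and ABCG1 and the ubiquitin ligase encoded by Mylip, which marks lipoprotein receptors for degradation. In cultured stromal cells lipid synthesis supplies membranes for growth and, on differentiation to fat cells, stored lipid.

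Values are log2 expression values as deposited, and a difference is the aged mean minus the young mean on that scale. The array medians lay between 5.39 and 5.44. Of the negative control probe sets 95% had a mean below 7.61, so no fold is given for a gene with a mean below 7.61 in either age, which was the case for 8 of the 31 genes. Called means an adjusted p under 0.05 in limma with Benjamini-Hochberg adjustment over all 20164 genes. By that rule 40.6% of all genes were called, 18.5% higher and 22.1% lower in aged cells, so a call alone is common in this comparison. The control probe sets did not shift one way. The 5222 negative controls had a median difference of -0.26 (range -2.36 to 1.86) and the 1324 positive controls one of -0.15, while the 23 antigenomic background probe sets, which match no mouse sequence, were higher in aged arrays by 0.01 to 0.29. The part of these shifts in the results was not tested. A stricter test asked whether the difference exceeded 0.3 on the log2 scale, which 5.8% of all genes passed as higher. The labels do not say which arrays were cultured or hybridised together, and a batch that followed age cannot be told apart from it. With 3 arrays against 3 the exact permutation test stops at a two-sided p of 0.1 for any gene, so calls rest on limma.

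The sort and the labelled cell type were set against marker genes. Col1a1, a chain of type I collagen made by stromal cells, averaged 13.22 ± 0.02 in aged and 12.43 ± 0.01 in young cells (SD, n = 3 each). Itgb1, which encodes CD29, averaged 11.76 ± 0.01 in aged and 11.86 ± 0.04 in young cells. Of the 10 stromal markers 7 had means above 7.61 in both ages. The other 3 were within the negative control range in both, with Thy1 at 6.28 in aged and 6.31 in young cells, Eng at 6.60 in aged and 6.53 in young cells and Nt5e at 7.05 in aged and 7.58 in young cells. Ptprc (CD45) was at 3.62 in aged and 3.65 in young cells and Itgam (CD11b) at 5.24 in aged and 5.26 in young cells, both within the negative control range. Ly6a, which encodes Sca-1, was not analysed here.

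Promoter sequences are shown for 6 of the genes, since those of sterol synthesis moved together. Idi1, Nsdhl, Mvk and Hmgcs1 are examples of sterol synthesis. Hsd17b7 and Cyp51, which had larger differences than Mvk and Hmgcs1, are not shown. Elovl6 is the fatty acid gene with the largest difference, and Fasn is a gene that did not pass the test. Each runs from 250 bases before to 50 bases after the annotated start, from RefSeq on the mouse build GRCm38.p6, written 5′ to 3′ on the gene's strand. The windows are chr13:8885356-8885655 on the plus strand for Idi1, chrX:72918271-72918570 on the plus strand for Nsdhl, chr5:114444019-114444318 on the plus strand for Mvk, chr13:119690101-119690400 on the plus strand for Hmgcs1, chr3:129532136-129532435 on the plus strand for Elovl6 and chr11:120824498-120824797 on the minus strand for Fasn. Capitals mark CCAAT, the box bound by NF-Y, a factor that works beside SREBPs at sterol genes, its reverse complement ATTGG, and TCACNCCAC, the core of a sterol regulatory element, which was searched on both strands.
Idi1: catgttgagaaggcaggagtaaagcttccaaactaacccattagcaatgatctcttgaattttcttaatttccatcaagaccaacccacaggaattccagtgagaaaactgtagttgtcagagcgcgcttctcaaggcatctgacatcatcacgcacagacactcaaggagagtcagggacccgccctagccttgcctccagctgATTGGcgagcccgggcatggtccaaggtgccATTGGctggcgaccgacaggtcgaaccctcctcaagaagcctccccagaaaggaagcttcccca
Nsdhl: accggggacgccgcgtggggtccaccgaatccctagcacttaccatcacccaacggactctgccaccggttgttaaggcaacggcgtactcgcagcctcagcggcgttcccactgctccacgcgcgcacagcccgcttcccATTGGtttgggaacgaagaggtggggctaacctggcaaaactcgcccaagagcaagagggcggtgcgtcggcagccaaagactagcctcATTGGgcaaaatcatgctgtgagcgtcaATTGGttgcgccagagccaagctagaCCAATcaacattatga
Mvk: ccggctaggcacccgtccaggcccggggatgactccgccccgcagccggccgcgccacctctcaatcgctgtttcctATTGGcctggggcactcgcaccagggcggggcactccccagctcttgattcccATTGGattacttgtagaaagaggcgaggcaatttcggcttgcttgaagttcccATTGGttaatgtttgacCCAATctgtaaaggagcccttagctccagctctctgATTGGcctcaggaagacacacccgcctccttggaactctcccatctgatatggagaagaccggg
Hmgcs1: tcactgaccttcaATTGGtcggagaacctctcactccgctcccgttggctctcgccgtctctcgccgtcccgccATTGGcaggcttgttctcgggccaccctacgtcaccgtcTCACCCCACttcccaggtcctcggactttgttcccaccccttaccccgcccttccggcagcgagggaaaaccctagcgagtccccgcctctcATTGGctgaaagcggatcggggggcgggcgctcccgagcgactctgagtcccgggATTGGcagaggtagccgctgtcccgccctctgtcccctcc
Elovl6: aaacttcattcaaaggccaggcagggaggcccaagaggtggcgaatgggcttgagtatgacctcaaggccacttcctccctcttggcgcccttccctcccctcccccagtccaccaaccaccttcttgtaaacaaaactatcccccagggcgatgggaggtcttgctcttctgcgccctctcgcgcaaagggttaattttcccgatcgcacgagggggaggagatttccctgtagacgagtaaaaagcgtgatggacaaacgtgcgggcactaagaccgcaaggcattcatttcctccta
Fasn: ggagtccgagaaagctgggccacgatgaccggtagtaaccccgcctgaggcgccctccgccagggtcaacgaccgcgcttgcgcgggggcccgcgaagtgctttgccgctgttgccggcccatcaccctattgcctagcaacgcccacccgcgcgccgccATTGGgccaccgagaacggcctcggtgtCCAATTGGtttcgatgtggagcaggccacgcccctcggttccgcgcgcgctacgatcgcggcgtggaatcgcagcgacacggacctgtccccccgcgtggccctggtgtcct

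CCAAT or its reverse complement occurred 5 times in the Mvk window, 4 times in those of Nsdhl and Hmgcs1, 3 times in that of Fasn, 2 times in that of Idi1 and not in that of Elovl6. Overlapping matches were counted, and 2 of the 3 in Fasn overlap each other. The sterol element core occurred once, in Hmgcs1. The sterol synthesis genes not shown held from 1 box, as in Cyp51, to 3, as in Hsd17b7, in their window with the most. A promoter window was at hand for 24 of the 31 genes, with several starts for some, and a gene was counted if any of its windows held the motif. The NF-Y box was present in all 13 sterol synthesis genes with a window though for Pmvk and Dhcr7 in only 1 of their windows, in 3 of 6 fatty acid synthesis genes and in 19 of all 24. Among all tested genes 5259 of 12678 held it (41.5%), and among all genes called higher 1192 of 2732 (43.6%). The sterol element core was present in 1 of the 24 genes, against 201 of 12678 tested genes (1.59%). Such matches are a description of these letters and no evidence of binding.

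In aged cells all 16 genes of sterol synthesis that were analysed, of 18 listed, were called higher, while Acaca and Fasn, which build the saturated fatty acid chain, did not pass the test. Of the 31 genes, 28 were called higher and 0 lower (limma, adjusted p under 0.05), beside 18.5% higher and 22.1% lower of all genes tested. The genes were chosen with earlier results of these data known, so such contrasts describe the list and are no independent test. At an unadjusted p under 0.05, 1 was lower. The aged and young values did not overlap, with aged higher, in 29 of 31 genes, against 24.4% of all genes tested. The median difference of the 31 was 0.38, beside 0.01 for all genes tested, whose 5th and 95th percentiles were -0.41 and 0.52. Past the stricter test against 0.3 were 15 of the 31, beside 5.8% of all genes tested that passed it as higher. Of these 15, 11 were of sterol synthesis, 2 of uptake and sensing and 2 of fatty acid synthesis.

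**Figure D1:**
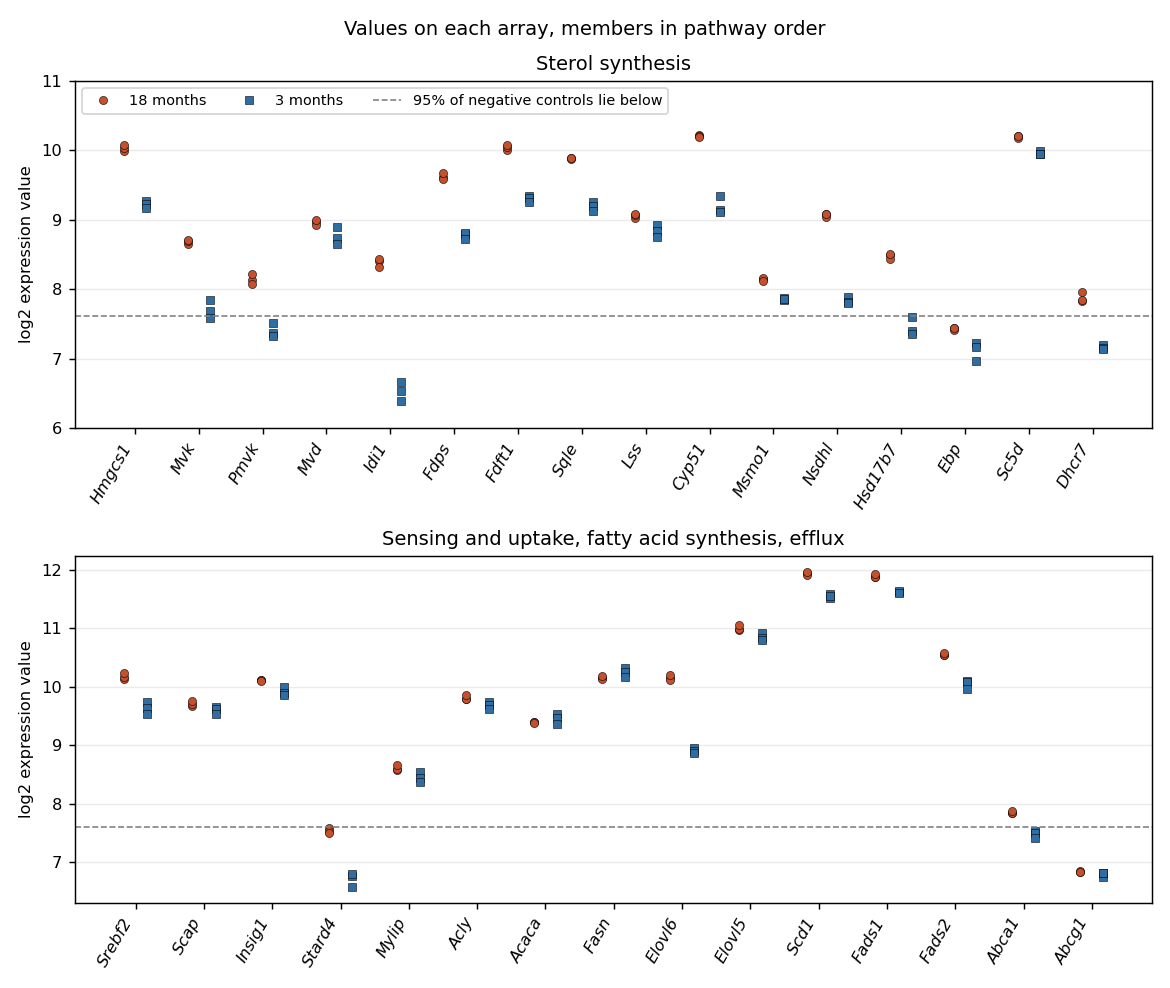
Log2 expression values of the 31 genes on each of the 6 arrays, circles for 18 months and squares for 3 months, with the sterol synthesis genes in pathway order in the upper panel and the other groups in the lower one. The dashed line at 7.61 marks the level below which 95% of the negative control probe sets lie; the circles stand clear above the squares for Idi1, Nsdhl and Elovl6 and overlap with them for Acaca and Fasn.

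The mevalonate branch, which makes the isoprenoid units of sterols, was higher in all 6 genes analysed, with a median difference of 0.82 and 5 of 6 past the test against 0.3. Idi1, the isomerase that readies isopentenyl diphosphate for chain building, had the largest difference of all 31 genes. It read 8.41, 8.43 and 8.32 on the aged arrays, against 6.67, 6.53 and 6.38 on the young arrays. The young values lie within the negative control range and the aged values above it, so that the difference of 1.86 ± 0.07 (SE) is given without a fold (limma, adjusted p = 1.87e-07).

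Hmgcs1 encodes the synthase that makes HMG-CoA, the precursor of mevalonate. Its values were 9.99, 10.03 and 10.08 in aged cells and 9.28, 9.23 and 9.18 in young cells, a 1.74-fold rise (difference 0.80 ± 0.04, SE; adjusted p = 6.39e-07). Every aged array lay above every young array by at least 0.71. Mvk encodes mevalonate kinase, which adds the first phosphate to mevalonate. It stood at 8.65, 8.70 and 8.71 in aged cells and at 7.84, 7.68 and 7.59 in young cells, a 1.98-fold rise (adjusted p = 4.07e-06). The young arrays were more spread than the aged ones here, with an SD of 0.04 in aged and 0.13 in young cells.

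Pmvk, the kinase that follows, read 8.13, 8.08 and 8.22 on aged arrays and 7.36, 7.33 and 7.52 on young arrays, which are within the negative control range, and rose by 0.74 on the log2 scale (adjusted p = 1.8e-05). Fdps encodes the synthase of farnesyl diphosphate, the branch point to sterols, ubiquinone and protein prenylation. It had 9.62, 9.58 and 9.67 in aged cells, against 8.79, 8.81 and 8.73 in young cells, a 1.8-fold rise (adjusted p = 4.05e-07). Mvd, the decarboxylase between Pmvk and Idi1, differed least in the branch. Its values of 8.96, 8.92 and 8.99 in aged cells stood just above the 8.90, 8.74 and 8.66 of young cells, a difference of 0.19 (95% interval 0.06 to 0.33, adjusted p = 0.0264). The lowest aged and the highest young array were 0.03 apart. The call of Mvd was lost without aged replicate 1, aged replicate 3 or young replicate 2 (adjusted p from 0.0742 to 0.0949), and it did not pass the test against 0.3.

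The 3 genes from farnesyl diphosphate to lanosterol were higher as well. Fdft1, squalene synthase and the first enzyme committed to sterols, had 10.01, 10.04 and 10.08 in aged cells and 9.34, 9.32 and 9.26 in young cells, a 1.67-fold rise (adjusted p = 6.49e-07). Sqle, the squalene epoxidase that is a rate-limiting step of the pathway, had 9.89, 9.88 and 9.89 in aged cells and 9.26, 9.19 and 9.12 in young cells, a 1.62-fold rise (adjusted p = 1.72e-06). Both were separated between the ages by more than 0.6 on the log2 scale. Lss, which closes the rings to form lanosterol, rose less, with 9.03, 9.07 and 9.08 in aged and 8.93, 8.85 and 8.75 in young cells (1.16-fold, adjusted p = 0.0055), and did not pass the test against 0.3.

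From lanosterol to cholesterol all 7 genes analysed were called higher, with a median difference of 0.72 and 4 of 7 past the test against 0.3. Nsdhl, an X-linked dehydrogenase that takes part in removing methyl groups from the sterol ring, had 9.09, 9.04 and 9.08 in aged cells and 7.89, 7.81 and 7.80 in young cells. This was a 2.36-fold rise and the largest in sterol synthesis among the genes with a fold (difference 1.24 ± 0.04, SE; adjusted p = 5.56e-08). Cyp51, the lanosterol demethylase, was very even in aged cells at 10.22, 10.21 and 10.20, and was at 9.34, 9.14 and 9.11 in young cells, a 2.02-fold rise (adjusted p = 2.04e-06). Hsd17b7, a reductase that completes the removal of the methyl groups, had 8.50, 8.44 and 8.51 in aged cells and 7.602, 7.405 and 7.352 in young cells. The young values lay within the negative control range, so the difference of 1.03 is given without a fold (limma, adjusted p = 3.47e-06).

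Dhcr7, the reductase of the last step to cholesterol, had 7.84, 7.85 and 7.95 in aged cells and 7.19, 7.15 and 7.14 in young cells, which are within the negative control range, a difference of 0.72 (adjusted p = 4.6e-06). The other 3 of this stretch were called with differences of 0.23 to 0.31. Msmo1, the methyl sterol oxidase that acts with Nsdhl and Hsd17b7, averaged 8.14 ± 0.02 in aged and 7.86 ± 0.02 in young cells (SD, n = 3 each), a 1.22-fold rise (adjusted p = 0.000288). The desaturase gene Sc5d averaged 10.20 ± 0.02 in aged and 9.97 ± 0.02 in young cells, 1.17-fold. Ebp, an isomerase that moves a double bond of the ring, averaged 7.43 ± 0.01 in aged and 7.12 ± 0.14 in young cells, within the negative control range in both ages. None of these 3 passed the test against 0.3. The differences of these 7 genes ranged from 0.23 for Sc5d to 1.24 for Nsdhl, and whether they differ from each other was not tested.

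**Figure D2:**
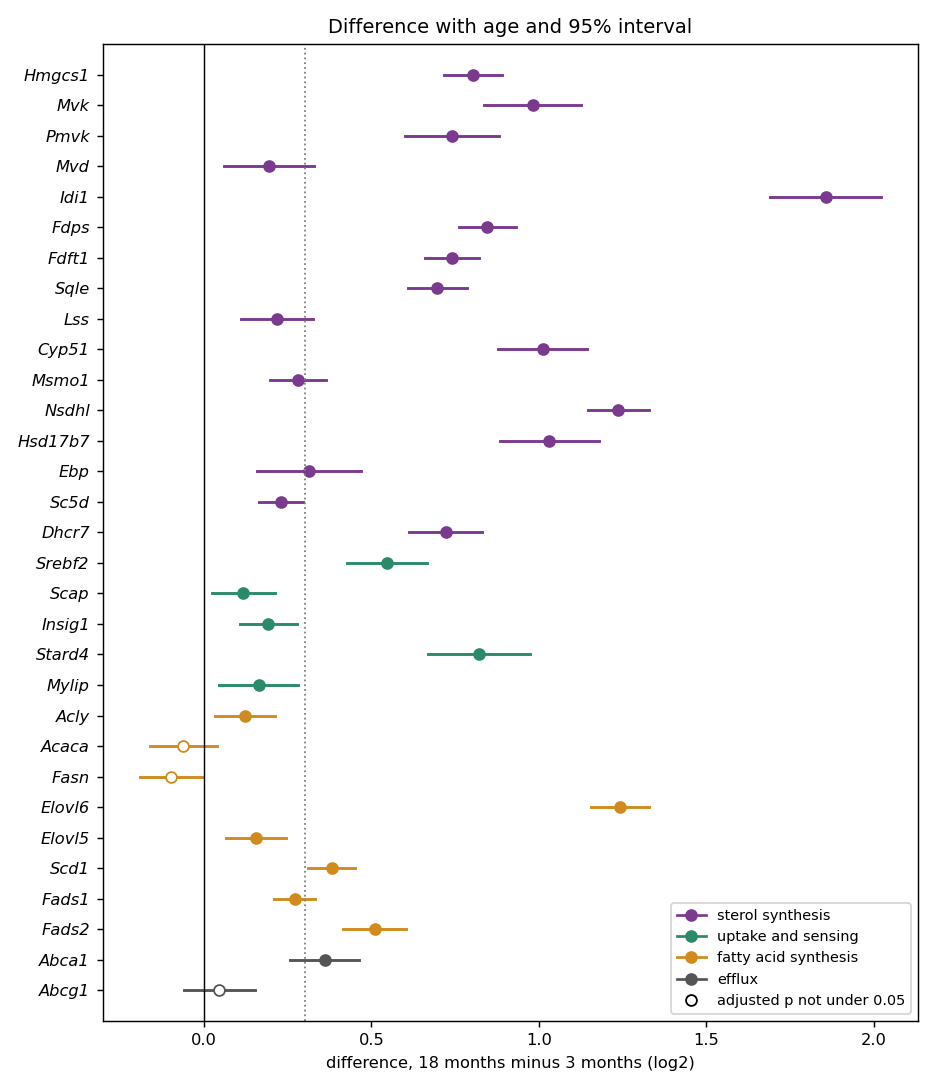
Difference between aged and young means on the log2 scale (x axis) for each of the 31 genes, with 95% intervals from limma, colour giving the group, open circles genes whose adjusted p was not under 0.05, and the dotted line a difference of 0.3. The 16 sterol synthesis genes lie between 0.19 and 1.86, and Acaca and Fasn lie at -0.06 and -0.10.

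All 5 genes of uptake and sensing were called higher, by 0.19 in the median, and 2 of the 5 passed the test against 0.3. None of the 5 encodes a lipoprotein receptor, so they do not show how uptake itself differs. Srebf2, which encodes SREBP2, had 10.14, 10.16 and 10.23 in aged cells and 9.73, 9.63 and 9.53 in young cells, a 1.46-fold rise (difference 0.55 ± 0.05, SE; adjusted p = 4.25e-05) that also passed the test against 0.3. Insig1, whose protein retains SCAP in the endoplasmic reticulum and whose gene is itself an SREBP target, had 10.11, 10.12 and 10.10 in aged cells and 9.99, 9.90 and 9.86 in young cells. The rise was 1.14-fold (adjusted p = 0.00308). Scap averaged 9.72 ± 0.04 in aged and 9.60 ± 0.06 in young cells, a difference of 0.12 (95% interval 0.02 to 0.21, adjusted p = 0.0494). That call is at the edge of the threshold: it was lost with any of 5 single arrays left out, young replicate 1 being the exception (adjusted p from 0.0695 to 0.179), and after median centring (adjusted p = 0.0645).

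Stard4, a soluble carrier that moves cholesterol between membranes, had 7.59, 7.53 and 7.50 in aged cells and 6.77, 6.80 and 6.58 in young cells, a difference of 0.82 ± 0.07 (SE, adjusted p = 1.57e-05). Both means lay within the negative control range, so the true ratio is not known. Mylip averaged 8.61 ± 0.05 in aged and 8.45 ± 0.09 in young cells, a difference of 0.16 (adjusted p = 0.0323), and the lowest aged array was 0.03 above the highest young one. Its call was also lost with any single array left out other than young replicate 1 (adjusted p from 0.0569 to 0.128) and with the replicate number as a block (adjusted p = 0.066).

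The fatty acid synthesis genes are given by step, and whether the steps differ was not tested. Of 8 genes analysed 6 were called higher, none lower and 2 did not pass, with a median difference of 0.21; at an unadjusted p under 0.05 1 was lower, Fasn. The enzymes that make the saturated chain stood near their young levels. Acly, which makes cytosolic acetyl-CoA from citrate, had 9.78, 9.79 and 9.85 in aged cells and 9.74, 9.69 and 9.62 in young cells, a difference of 0.12 (adjusted p = 0.0351). The call was lost with any single array left out other than young replicate 1 (adjusted p from 0.0607 to 0.137).

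Acaca, the acetyl-CoA carboxylase that commits carbon to fatty acids, had 9.40, 9.40 and 9.38 in aged cells and 9.53, 9.47 and 9.37 in young cells, a difference of -0.06 (95% interval -0.16 to 0.04, adjusted p = 0.314). Fasn, the fatty acid synthase that assembles palmitate, had 10.14, 10.13 and 10.18 in aged cells and 10.33, 10.25 and 10.17 in young cells, a difference of -0.10 (95% interval -0.193 to -0.0026 before adjustment, adjusted p = 0.0986). In both genes young replicate 3 lay within or below the aged values and the other young arrays above all of them. Without young replicate 3 both passed the test as lower in aged cells, Acaca by -0.11 (adjusted p = 0.0214) and Fasn by -0.14 (adjusted p = 0.0116).

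The modifying enzymes were higher. Elovl6, the elongase that takes palmitate to stearate, had 10.15, 10.11 and 10.20 in aged cells and 8.96, 8.90 and 8.87 in young cells. That is a 2.37-fold rise, the largest among the 23 genes with a fold (difference 1.24 ± 0.04, SE; adjusted p = 3.7e-08). Elovl5, an elongase of polyunsaturated chains, had 10.97, 10.98 and 11.05 in aged cells and 10.92, 10.83 and 10.80 in young cells, 1.11-fold (adjusted p = 0.0111). The difference of Elovl5 was 0.16, and whether the change of Elovl6 exceeded it was not tested.

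The desaturases followed. Fads2, which introduces the first double bond in polyunsaturated fatty acid synthesis, had 10.54, 10.54 and 10.57 in aged cells and 10.10, 10.07 and 9.95 in young cells, a 1.42-fold rise (adjusted p = 1.51e-05). A further probe set of Fads2 averaged 10.13 in aged and 9.53 in young cells, with a difference of 0.60 when every probe set was tested (adjusted p = 6.46e-05). Fads1, the next desaturase in that route, averaged 11.89 ± 0.03 in aged and 11.62 ± 0.02 in young cells (SD, n = 3 each), 1.21-fold (adjusted p = 6.2e-05).

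Scd1, the stearoyl-CoA desaturase that makes oleate, had 11.93, 11.90 and 11.97 in aged cells and 11.59, 11.52 and 11.55 in young cells, a 1.3-fold rise (adjusted p = 1.62e-05). Scd1 belongs to a family of similar genes, so its probe set may read more than 1 of them. Its further probe set averaged 8.46 in aged and 8.13 in young cells, a difference of 0.33 (adjusted p = 0.0484 with every probe set tested). Of the fatty acid genes only Elovl6 and Fads2 passed the test against 0.3.

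Of the 2 efflux pumps 1 was called higher. Abca1, which loads cholesterol onto apolipoproteins, had 7.84, 7.84 and 7.87 in aged cells and 7.54, 7.50 and 7.42 in young cells, where its mean was within the negative control range, a difference of 0.36 (adjusted p = 0.000238). Abcg1, which passes cholesterol to larger lipoprotein particles, had 6.83, 6.86 and 6.84 in aged cells and 6.76, 6.82 and 6.82 in young cells, a difference of 0.05 (95% interval -0.06 to 0.15, adjusted p = 0.488). Its aged values lay above its young ones by 0.01, and both were within the negative control range. After quantile normalization the difference of Abcg1 was -0.001.

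**Figure D3:**
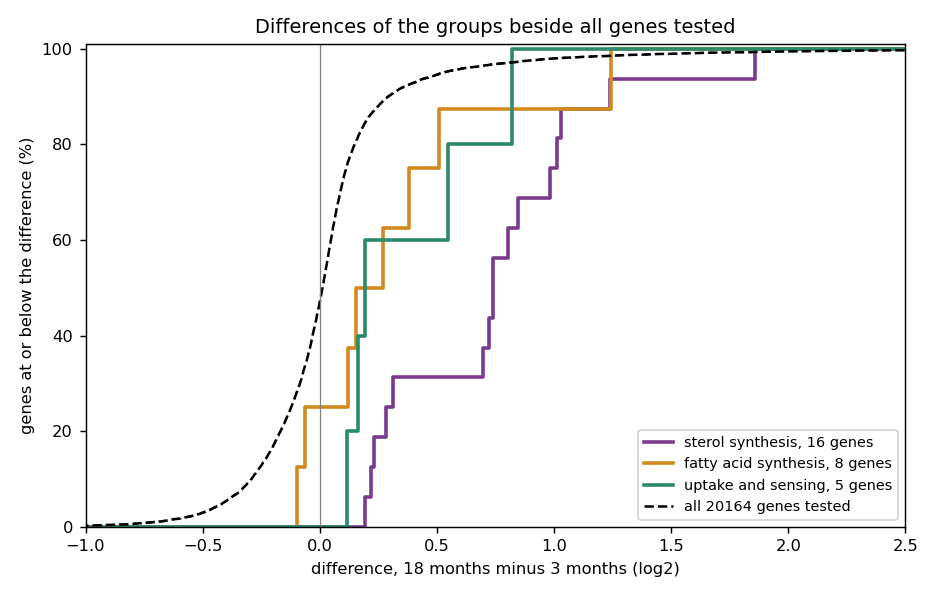
Cumulative share of genes (y axis, in percent) at or below each difference between aged and young means (x axis, log2) for the sterol synthesis, fatty acid synthesis, and uptake and sensing genes, with all 20164 tested genes as the dashed line. The medians are 0.74 for sterol synthesis, 0.21 for fatty acid synthesis, 0.19 for uptake and sensing and 0.01 for all genes tested; the x axis leaves out the few genes beyond its ends.

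The young arrays were less alike than the aged ones. The median SD over the 31 genes was 0.03 in aged and 0.07 in young cells, as over all genes tested, where it was 0.04 in aged and 0.07 in young cells. In 25 of the 31 genes young replicate 1 had the highest of the young values, and in 26 young replicate 3 had the lowest, beside 43.8% and 42.9% of all genes tested. The young array closest to the aged ones was therefore mostly the same array. Leaving out young replicate 1 gave 28 genes called higher and 0 lower, and leaving out young replicate 3 gave 25 higher and 2 lower.

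Related genes from lists of the same pathways, other than the 35, moved both ways, as did all genes tested. Of the latter 18.5% were called higher and 22.1% lower, and whether a list differed from these shares was not tested. Of 14 further sterol and isoprenoid genes 7 were higher and 5 lower, with a median difference of 0.08. Cyb5a and Cyb5r3, a cytochrome and its reductase that pass electrons to sterol and fatty acid oxidases, rose 1.38-fold and 1.3-fold, and Erg28, a scaffold of the sterol demethylation enzymes in yeast, rose 1.27-fold. Ggps1, the synthase of geranylgeranyl diphosphate for protein prenylation, fell by 0.43 on the log2 scale, to 7.99 ± 0.04 in aged cells against 8.42 ± 0.02 in young cells (SD, n = 3 each, adjusted p = 2.45e-05). Pdss2 (ubiquinone side chain) and Dhdds (dolichol) fell by 0.24 and 0.22, with Pdss2 within the negative control range in both ages. These 3 draw on the same isoprenoid units as Fdft1, which rose. Other genes of these branches, named after their values were seen, went both ways. Coq2, also of ubiquinone synthesis, rose 1.2-fold, and Nus1, the partner of Dhdds, fell by 0.13.

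Of 16 further genes of sterol sensing 3 were higher and 8 lower, with a median of -0.13. Rnf145 and Rnf139, ubiquitin ligases of the endoplasmic reticulum, rose 1.27-fold and 1.15-fold, and Nfyc, an NF-Y subunit, rose 1.11-fold. Syvn1, a ligase that disposes of misfolded proteins, decreased by 0.57, Erlin2 by 0.44 and Gramd1a, a sterol carrier at membrane contacts, by 0.38. The other subunits of NF-Y, named here after their values were seen, fell by 0.24 for Nfya and 0.21 for Nfyb.

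Of 17 uptake and storage genes 6 were higher and 5 lower. Cav1, the coat protein of caveolae, rose 1.74-fold, Npc2, which hands cholesterol out of the lysosome, 1.52-fold, and Lrpap1, a chaperone of lipoprotein receptors, 1.37-fold. The oxysterol-binding protein genes Osbpl2, Osbp and Osbpl8 fell by 0.51, 0.50 and 0.46. Of 16 efflux and LXR genes 7 were higher and 3 lower. Apod, a lipid-binding apolipoprotein, averaged 8.29 ± 0.03 in aged and 6.01 ± 0.06 in young cells, where it was within the negative control range. Scp2, a sterol carrier, rose by 0.58 on the log2 scale and Lpcat3, a phospholipid remodelling enzyme and LXR target, rose 1.43-fold. The LXR gene Nr1h3, named after its value was seen, averaged 7.23 in aged and 6.94 in young cells, within the negative control range in both. Abca5, Abca2 and Lcat fell by 0.28, 0.28 and 0.23. Scp2 was within the negative control range in young cells, Abca5 and Abca2 in aged cells and Lcat in both ages.

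Of 33 further fatty acid genes 18 were higher and 3 lower, with a median of 0.19. Idh1, a cytosolic source of NADPH, rose 1.64-fold, Fabp5, a fatty acid carrier, rose by 0.86 and Oxsm, of mitochondrial fatty acid synthesis, by 0.83 on the log2 scale, with Fabp5 within the negative control range in both ages and Oxsm in young cells. Pgd and Me1, other sources of NADPH, fell by 0.63 and 0.39, and Elovl4, an elongase of very long chains, by 0.56. Of 20 glycerolipid genes 5 were higher and 7 lower, with a median of -0.03. Pcyt1a and Pcyt2, of phospholipid synthesis, rose 1.23-fold and 1.22-fold, as did Agpat3 at 1.22-fold. Lpin2, Dgat2 (the last step of triglyceride synthesis) and Pnpla2 (the triglyceride lipase) fell by 0.62, 0.37 and 0.29, with Lpin2 within the negative control range in aged cells.

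Of 8 oxysterol genes, which encode enzymes and, for Gpr183, a receptor, 3 were higher and 0 lower, also 0 at an unadjusted p under 0.05 (limma). Ch25h, the hydroxylase that makes an oxysterol which restrains SREBP processing, averaged 8.71 ± 0.07 in aged and 7.90 ± 0.18 in young cells, a 1.76-fold rise (adjusted p = 7.41e-05). Cyp39a1, a hydroxylase of oxysterols, rose by 0.94 within the negative control range in both ages. Hsd3b7, of bile acid synthesis, rose by 0.29 and was within that range in young cells.

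**Figure D4:**
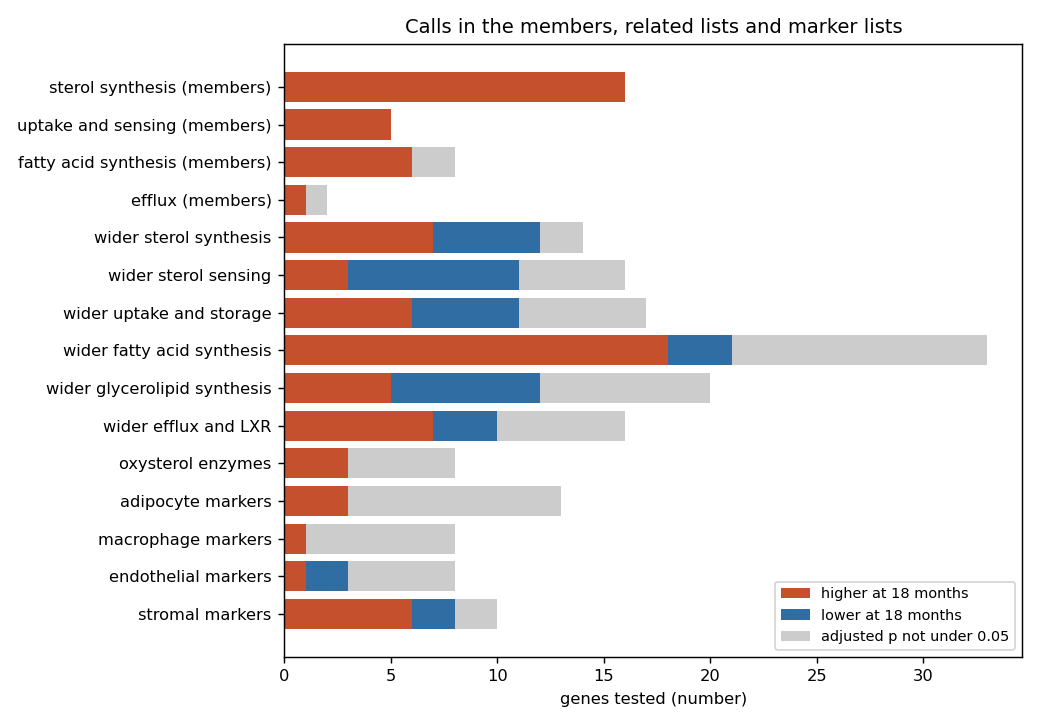
Number of tested genes (x axis) called higher, called lower or not called in aged against young cells, for the 4 groups of the 31 genes, for related lists and for marker lists. All 16 sterol synthesis genes are called higher, while the further sterol genes hold 7 higher and 5 lower. Over all genes tested, 18.5% are called higher and 22.1% lower.

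Markers of other cell types were read beside these genes. The shares over all genes tested were 18.5% called higher and 22.1% called lower. Of 13 adipocyte markers tested 3 were higher and 10 did not pass, with a median difference of 0.07. Plin4 averaged 8.87 in aged and 7.76 in young cells, Fabp4 7.39 in aged and 5.37 in young cells and Pparg 7.82 in aged and 7.51 in young cells. Fabp4 was within the negative control range in both ages and Pparg in young cells. Plin1 was at 6.20 in aged and 6.22 in young cells and Adipoq at 4.03 in aged and 3.88 in young cells, all within the negative control range. The summed linear signal of all 15 adipocyte markers analysed was 1620 to 1640 on aged and 1170 to 1190 on young arrays. Of 8 macrophage markers tested only Cd14 was called, as higher, and the summed signal of all 13 was 810 to 829 on aged and 785 to 798 on young arrays. Of 8 endothelial markers tested Kdr was higher, and Tek and Vwf were lower, with a summed signal of all 10 of 699 to 722 on aged and 652 to 717 on young arrays. Every macrophage and endothelial marker, Cd14, Kdr, Tek and Vwf included, had means within the negative control range in both ages. Their calls and sums are therefore of values at that level and do not measure the content of these cells. Of 10 stromal markers 6 were higher (Vcam1, Prrx1, Col1a1, Col1a2, Pdgfrb and Cd44) and 2 lower (Nt5e and Itgb1), with a summed signal of 26800 to 27400 on aged and 19200 to 19700 on young arrays. A summed signal leans on its brightest genes, which were Plin4 among the adipocyte and Col1a1 among the stromal markers. The part of these markers in the sterol and fatty acid results was not tested.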

How the data were processed

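Gene expression was measured on 6 Affymetrix arrays, 3 of aged and 3 of young mice, grouped by their titles. The authors' deposited log2 values, 1 per probe set and array, were used without further scaling; per the submitters' processing notes MAS5 was used, and the sources used here give no other step. The table held 72688 probe sets and no detection calls, so signal was judged against 5222 negative controls.

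Symbols of the platform annotation were updated through the RefSeq table of GRCm38.p6; 31223 probe sets had 1 gene and 1527 several, which were left unnamed. The probe set with the highest mean was kept for each of 30675 genes. Genes with a mean below the median transcript cluster (5.403) were left out, which kept 20164. Aged and young arrays were compared with limma 3.58.1 in R 4.3.3 (lmFit, eBayes with trend, Benjamini-Hochberg), a method checked on simulated arrays. Figures were drawn with matplotlib 3.10.9.

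The members and lists were chosen with earlier results of these data known. All members are named; of each related list up to 3 genes per direction with the largest difference among called genes without overlap, and all called markers. Alternatives were other scalings, filters, probe set summaries and variance models, a test against 0.3, a replicate block and each array left out. A planned comparison of protein sequences was not run.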

Additional observations from a re-analysis of the deposited data

How the results depend on the processing

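Under the 16 alternatives the number of the 31 genes called higher in aged cells lay between 24 and 28, except in the test against a difference of 0.3, where it was 15, and 0 were called lower, except without young replicate 3. With the replicate number as a block (replicate block) 25 were called higher; Scap, Mylip and Acly lost their calls there. Same-numbered arrays did not deviate together (correlations of -0.05, 0.07 and 0.02), so the numbers were not taken as pairs. Leaving out each array in turn gave 24 to 28 called higher and 0 to 2 called lower. All genes called numbered 8186, and 1982 in the test against 0.3. Of the 28 called genes 24 were called in the same direction under all 15 alternatives other than that test. The exceptions were Mvd, Scap, Mylip and Acly. Under all 16 alternatives, that test included, 15 of the 28 kept their call. The only change of direction was that of Abcg1, which did not pass the test, to -0.001 after quantile normalization. The median difference of the 31 ranged from 0.36 to 0.44. The number of arrays limits the precision, and values below 7.61 lie within the negative control range.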

Other observations

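The endoplasmic reticulum cycle that lengthens fatty acids uses an elongase, a ketoacyl reductase, a dehydratase and an enoyl reductase. The genes given here were chosen after their values were seen, and no test of them as a group was made. The dehydratase gene Hacd2 averaged 9.88 ± 0.02 in aged and 9.25 ± 0.03 in young cells (SD, n = 3 each), a 1.56-fold rise. The enoyl reductase gene Tecr averaged 10.95 ± 0.04 in aged and 10.40 ± 0.04 in young cells, 1.46-fold, and the ketoacyl reductase gene Hsd17b12 averaged 10.72 ± 0.01 in aged and 10.46 ± 0.02 in young cells, 1.2-fold. Elovl4 moved the other way, at 9.68 ± 0.06 in aged and 10.25 ± 0.07 in young cells. Of the other elongase genes beside Elovl5 and Elovl6, Elovl1 was called higher (difference 0.22), and Elovl2, Elovl3 and Elovl7 did not pass the test, with differences of -0.03, -0.09 and -0.06 within the negative control range.

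Slc25a1, the mitochondrial citrate carrier that supplies carbon for cytosolic acetyl-CoA, rose 1.29-fold, to 9.63 ± 0.02 in aged cells against 9.26 ± 0.02 in young cells. Acat1, the mitochondrial acetoacetyl-CoA thiolase, rose 1.26-fold. The late endosomal cholesterol genes went opposite ways, with Npc2 at 9.09 ± 0.03 in aged and 8.49 ± 0.04 in young cells and Npc1 at 10.14 ± 0.01 in aged and 10.45 ± 0.05 in young cells.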
